A study of Mus musculus with 12 samples.

Results

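The 33 genes described here carry transforming growth factor beta (TGF-beta) and bone morphogenetic protein (BMP) signals, and were taken by gene symbol, whatever their values, from the 43279 genes of the deposited expression table. They comprise 3 ligands, 2 ligand-storage proteins, 5 type I and 4 type II receptors, 3 co-receptors or decoys, 7 SMAD proteins, 3 SMAD co-repressors, 2 SMAD ubiquitin ligases and 4 target genes. The series used germline Osmr-/- mice, which lack the receptor chain for oncostatin M, and WT C57BL/6 mice, and addressed how loss of this receptor in the bone marrow alters hematopoietic stem cells. All mice were adult and naive, and the sources used here do not say whether the WT mice were littermates of the Osmr-/- mice. From the femurs, tibias and ilium of each mouse, 1000 cells were sorted as Lin- KIT+ SCA-1+ FLT3- CD48-, a gate that contains long-term and short-term repopulating cells, and amplified by the SMART-Seq v4 method. The libraries numbered 1, 2, 3, 5 and 6 were from Osmr-/- mice (n = 5) and those numbered 1 to 6 from WT mice (n = 6), each from a different mouse, and Osmr-/- library 4 is not analysed here.

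In this pathway a ligand dimer, held latent in the matrix by binding proteins, brings type II and type I receptor kinases together, and the type I receptor phosphorylates receptor-regulated SMADs. SMAD2 and SMAD3 serve the TGF-beta and activin branch and SMAD1 and SMAD5 the BMP branch, and both branches share SMAD4, with which the phosphorylated SMADs enter the nucleus. SMAD6, SMAD7, SKI, SKIL, TGIF1 and the SMURF ligases restrain the signal, and TGF-beta is best known in the marrow for holding hematopoietic stem cells in quiescence.

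Expression is given as the normalised count, the number of reads divided by the size factor of the library. The libraries held 9.50 to 11.2 M reads in Osmr-/- mice and 9.89 to 22.1 M reads in WT mice, where the largest, WT 1, stood apart from the other 5 at 9.89 to 13.6 M reads. Stem cell markers were present in every library, with a summed normalised count of 28143 to 38790 in Osmr-/- mice and 28723 to 36654 in WT mice over 14 genes. Transcripts of Flt3, at 229 to 573 in Osmr-/- mice and 323 to 735 in WT mice, and of Cd48, at 512 to 1413 in Osmr-/- mice and 275 to 1446 in WT mice, were also detected, although both proteins were gated out. Osmr had 4 reads over the 5 Osmr-/- libraries and 13 over the 6 WT libraries, so its counts gave no check of the genotype labels. In a principal component analysis the second component, with 16.5% of the variance, separated libraries numbered 1 to 3 from those numbered 4 to 6 in both genotypes. The labels name no batch for these number sets, so values within each are given below.

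No member passed the threshold of an adjusted p of 0.05 (limma, Benjamini-Hochberg over all 13358 genes tested), with 0 called higher, where 0.00749% of all tested genes were, and 0 called lower, where 0.015% were. edgeR on the recovered reads also called 0 members, where 0.00749% of genes were higher and as many lower. The filter, which asked for a normalised count of 10 or more in 5 or more libraries, kept 27 of the 33, and Tgfb2, Tgfb3, Ltbp1, Acvrl1, Bmpr1a and Id3 did not pass it. At an unadjusted p under 0.05 limma placed 6 of the 27 members, or 22.2%, beside 18.0% of all tested genes, namely Smad4, Smad1, Tgfbr2 and Tgfbi higher, where 7.5% of all genes were, and Tgfb1 and Smad3 lower, where 10.5% were. Smad4 was the member of lowest p. DESeq2 gave an adjusted p to 17 of the 27 members, Tgfb1 not among them. It called Smad4 higher, where 2.09% of genes were, and called no member lower, where 4.23% were. The authors' deposited table, with an adjusted p for 29 members, also has Smad4 higher, where 1.67% of its genes were, and no member lower, where 2.79% were. Without WT 1 and Osmr-/- 3 together limma called 0 members, where 0.00771% of genes were lower.

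Among the 27 members, 18 had a log2 difference above 0 and 9 below 0, and 46.8% of all tested genes lay above 0. The median log2 difference was 0.29 over the 27 members and -0.05 over all tested genes. Genes were also ranked by the length of their longest transcript. Over the third with the longest transcripts the median was 0.09, and over the third with the shortest it was -0.22. The part of transcript length in the members' differences was not tested beyond a fit with the length and GC trend removed, where 18 members lay above 0, with a median of 0.36 beside 0.06 over all genes with a length.

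**Figure D1:**
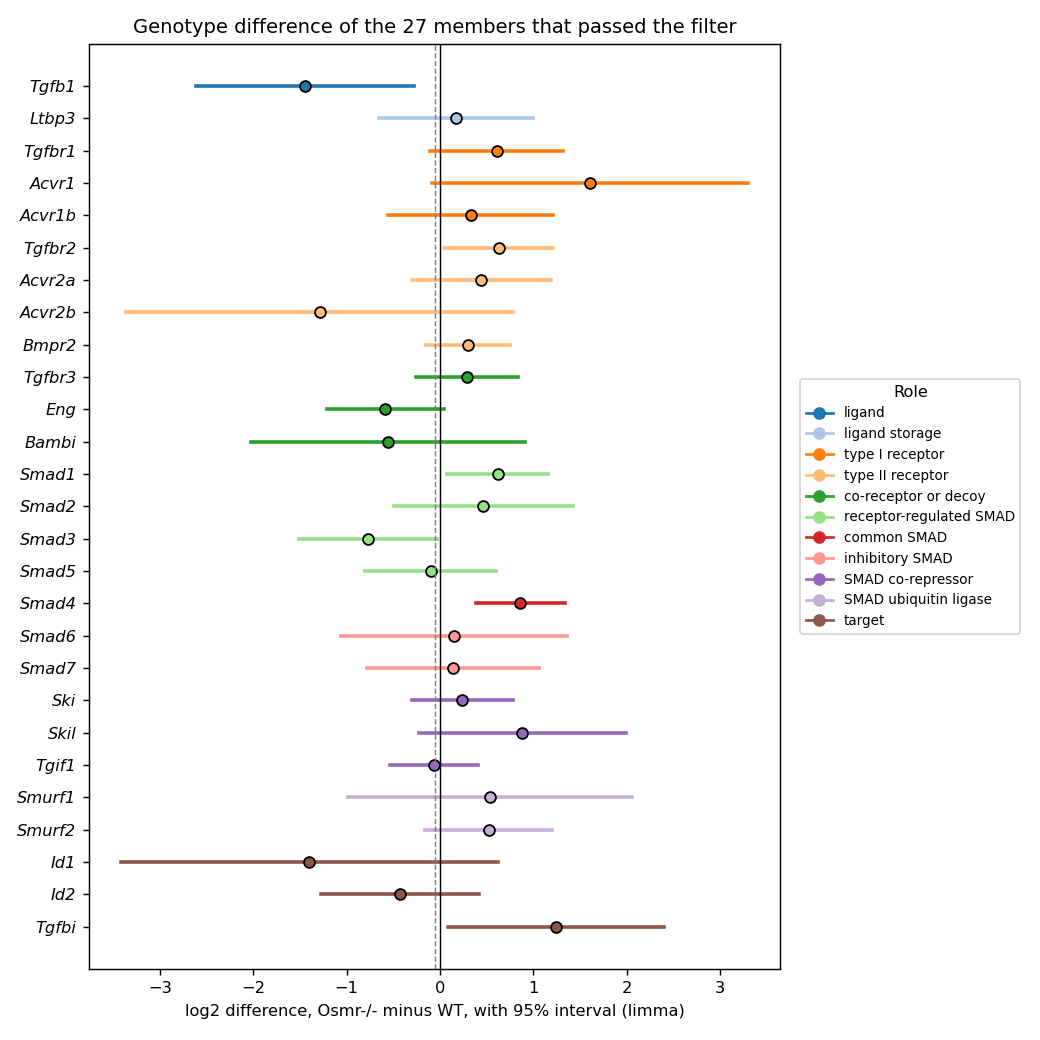
Log2 difference in normalised count (log2 scale, Osmr-/- minus WT) of the 27 members that passed the filter, as points with 95% intervals from limma, coloured by role; the solid line marks 0 and the dashed line the median of all tested genes at -0.05. The interval lies clear of 0 for Smad4, Smad1, Tgfbr2, Tgfbi, Tgfb1 and Smad3, and only Smad4 lies wholly above 0.3.

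Levels of different genes were compared per kilobase of exon (GENCODE M21, GRCm38). On that scale Smad4 had the highest level of the 33 in both genotypes, at 276 ± 20.4 normalised counts per kb in Osmr-/- cells (SD, n = 5) and 156 ± 39.1 in WT cells (SD, n = 6). Tgfbr3 at 145 ± 50.5 and Id2 at 117 ± 51.3 came next in Osmr-/- cells, and Id2 at 153 ± 55.2 and Tgfbr3 at 115 ± 24.2 in WT cells. The SDs of these 2 genes overlapped each other in both genotypes. Tgfb1, the highest of the ligands, was at 10.3 ± 5.32 per kb in Osmr-/- cells and 28.8 ± 16.5 in WT cells, below the level of its receptors Tgfbr1 and Tgfbr2 in each genotype. Reads were present in every library for 25 of the 33 members.

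**Figure D2:**
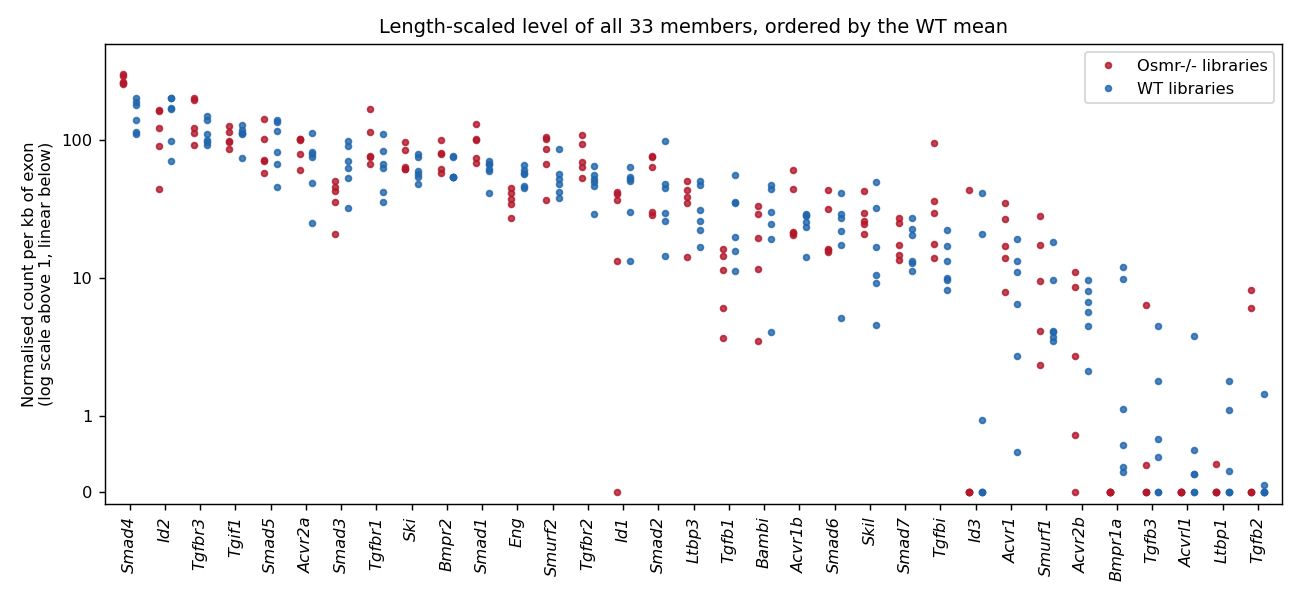
Normalised count per kb of exon (log axis above 1, linear below) for each of the 33 members in the 5 Osmr-/- libraries (red, left of each pair) and the 6 WT libraries (blue, right), ordered by the WT mean. Smad4 stands at the top, with a mean of 276 in Osmr-/- and 156 in WT libraries, and Bmpr1a is at 0 in all 5 Osmr-/- libraries.

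Of the ligands, Tgfb1 encodes the main TGF-beta isoform of blood cells. Its normalised counts were 72.5, 30.7, 81.2, 57.7 and 18.5 in Osmr-/- mice 1, 2, 3, 5 and 6, against 281, 179, 177, 99.3, 56.5 and 79.6 in WT mice 1 to 6. WT 1 to 4 lay above every Osmr-/- library, while WT 5 and 6 lay among them. The mean was 52.1 ± 26.8 in Osmr-/- cells (SD, n = 5) and 145 ± 83.4 in WT cells (SD, n = 6), 2.73-fold lower on the log2 scale of the normalised count plus 1, with a log2 difference of -1.45, its standard error 0.55 and the limma adjusted p 0.195 (unadjusted p 0.0182). The log2 difference was -1.85 within labels 1 to 3 and -1.19 within labels 4 to 6, and the authors' deposited table gives -1.15 with an adjusted p of 0.0645. Summed megakaryocyte marker counts were higher in the lower numbers of both genotypes. They were 16960 to 20532 in WT 1 to 3 and 7493 to 11383 in WT 4 to 6. In Osmr-/- 1 to 3 they were 12350 to 15549, and in Osmr-/- 5 and 6 they were 9663 and 10004. Rap1b held 50.7% of that sum. Without it the counts were 6985 to 11612 in WT 1 to 3 and 3984 to 5402 in WT 4 to 6. In Osmr-/- 1 to 3 they were then 5494 to 8887, and in Osmr-/- 5 and 6 4491 and 5327. The erythroid sum, given below, was also higher in WT 1 to 3 than in WT 4 to 6. The part of megakaryocyte or erythroid cells in the Tgfb1 difference was not tested.

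The other ligands were near absent. Tgfb2 had 77 reads in Osmr-/- libraries, all in Osmr-/- 1 and 5, and 9 reads in WT libraries, and Tgfb3 had 23 reads in Osmr-/- and 30 in WT libraries. Of the latent TGF-beta binding proteins, which hold the ligand in the matrix, Ltbp1 had 3 reads in Osmr-/- and 54 in WT libraries. Ltbp3 had normalised counts of 315, 461, 353, 129 and 394 in Osmr-/- mice, against 151 to 459 in WT mice with a median of 258. The groups overlapped, with a log2 difference of 0.17 and a standard error of 0.39 (limma adjusted p 0.86). Its difference was 0.94 within labels 1 to 3 and -0.75 within labels 4 to 6, and the interaction of genotype and number set had an unadjusted p of 0.0216 and an adjusted p of 0.435 in limma.

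All 3 type I receptors that passed the filter had a log2 difference above 0 without passing the test. Tgfbr1, the type I receptor for TGF-beta, had normalised counts of 496, 753, 1094, 501 and 440.1 in Osmr-/- mice, against 231 to 722 in WT mice with a median of 425. Only Osmr-/- 2 and 3 lay above the highest WT library, and the log2 difference was 0.61 with a standard error of 0.33 (limma adjusted p 0.362). Acvr1, which encodes the BMP type I receptor ALK2, had 68.0, 82.8, 170.1, 129.7 and 38.1 in Osmr-/- mice, against 2.52 to 92.8 in WT mice with a median of 42.5. The groups overlapped, and its log2 difference of 1.61 carried a standard error of 0.80 (limma adjusted p 0.302) and was 1.01 without WT 2, the library at 2.52. Acvr1b, the activin type I receptor, averaged 149.5 ± 80.7 in Osmr-/- cells and 109.8 ± 25.2 in WT cells (SD, n = 5 and 6), a log2 difference of 0.33 with a limma adjusted p of 0.714.

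Bmpr1a, a type I receptor for BMP2 and BMP4, was the member with no overlap among those that did not pass the filter. It had 0 reads in all 5 Osmr-/- libraries, against normalised counts of 62.9, 1.68, 7.05, 3.88, 76.7 and 2.07 in WT mice 1 to 6. All 6 WT libraries held reads, but WT 1 and WT 5 held most of the 213, and the other 4 lay at a level of 1.68 to 7.05, where a count of 0 allows 2.93 to 3.87 in an Osmr-/- library. With a floor of 3 reads over the Osmr-/- group, reads over summed size factors were at least 43.5-fold lower than in WT libraries. The bound was 25.4-fold without WT 1 and 32.3-fold without WT 5, and none was computed without both. Among genes with reads that did not pass the filter, 0.118% had Osmr-/- lower without overlap and 0.0549% had it higher. The authors' deposited table gives Bmpr1a -1.29 on the log2 scale (adjusted p 0.0695), and without the filter limma gave it an adjusted p of 0.24. Acvrl1, the endothelial type I receptor ALK1, had 0 reads in Osmr-/- and 22 in WT libraries, at least 4.49-fold lower with the same floor. WT 2 and 3 were also at 0, so the groups overlapped, and without WT 5, which held most of the reads, the bound was 1.41-fold.

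The start region of Bmpr1a is shown because the gene has no read in Osmr-/- cells and its window holds GGCGCC, a GC-rich motif bound by SMAD1 and SMAD5. Windows of 250 bases before to 50 after a gene start were taken from RefSeq (GRCm38.p6), and 24 of the 33 members matched, with 32 windows. GGCGCC, the same on both strands, lay in 10 member windows, or 31.2%, of 9 genes (Acvr1b, Bmpr1a, Bmpr2, Id2, Ski, Smad5, Smurf2, Tgfbi and Tgfbr1), and in 11.9% of all 32851 windows. A match is a description of the letters only. The Bmpr1a window is chr14:34502497-34502796 on the minus strand, with the motif in capitals 198 bases before the gene start:
Bmpr1a: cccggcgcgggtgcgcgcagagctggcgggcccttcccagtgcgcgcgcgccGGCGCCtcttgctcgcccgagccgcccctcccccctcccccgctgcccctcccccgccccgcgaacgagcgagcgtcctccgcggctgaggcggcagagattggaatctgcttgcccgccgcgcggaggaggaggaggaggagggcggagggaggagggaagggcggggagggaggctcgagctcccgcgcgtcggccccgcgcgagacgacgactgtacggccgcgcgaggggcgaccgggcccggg

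Among type II receptors, Tgfbr2, the ligand-binding receptor for TGF-beta, had normalised counts of 521, 767, 888, 432 and 566 in Osmr-/- mice, against 239 to 531 in WT mice with a median of 416. Osmr-/- 2, 3 and 6 lay above the highest WT library, and the other 2 within the WT range. The level was 1.55-fold higher on the log2 scale, with a log2 difference of 0.63, its standard error 0.27 and the limma adjusted p 0.252 (unadjusted p 0.0361). The log2 difference was 0.72 within labels 1 to 3 and 0.44 within labels 4 to 6. Acvr2a, an activin receptor and the type II receptor with the highest level per kb, had 345, 575, 577, 449.9 and 582 in Osmr-/- mice, against 143 to 646 in WT mice with a median of 441. All Osmr-/- libraries lay within the WT range (log2 difference 0.44, limma adjusted p 0.529). Bmpr2, the BMP type II receptor, averaged 1369 ± 310.2 in Osmr-/- cells and 1104 ± 198 in WT cells (limma adjusted p 0.478), and Acvr2b, a second activin receptor, 18.1 ± 19.3 in Osmr-/- cells and 24.0 ± 10.5 in WT cells (limma adjusted p 0.507; SD, n = 5 and 6). The Acvr2b log2 difference was -1.29, and -0.48 without Osmr-/- 3, which had no reads. Of the Acvr2a exon bases 7.84% overlap Orc4 on the other strand and of those of Bmpr1a 4.57% overlap Gm17110, and the sources used here give no strand setting for the counting, so reads of such partners cannot be told apart.

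Co-receptors differed in direction. Tgfbr3, or betaglycan, which presents ligand to TGFBR2, had 606, 737, 803, 1282 and 1326 in Osmr-/- mice, against 606 to 977 in WT mice with a median of 688. Osmr-/- 5 and 6 lay above every WT library, and the log2 difference was -0.10 within labels 1 to 3 and 0.85 within labels 4 to 6 (interaction p 0.0308 unadjusted and 0.463 adjusted in limma). Eng, which encodes endoglin, a co-receptor of endothelial and stem cells, had 169, 110.0, 151, 181 and 139.5 in Osmr-/- mice, against 181 to 267 in WT mice with a median of 232. Of the Osmr-/- libraries 4 lay below the lowest WT library, for a log2 difference of -0.59 with a standard error of 0.29 (limma adjusted p 0.309). Its differences were -0.65 and -0.49 in the number sets. Bambi, a decoy receptor without a kinase domain, averaged 98.6 ± 62.4 in Osmr-/- cells and 144 ± 82.1 in WT cells (SD, n = 5 and 6; limma adjusted p 0.705).

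Smad4 was the only tested member whose groups did not overlap, which occurred with Osmr-/- higher in 1.09% and lower in 1.42% of tested genes. Its normalised counts were 972, 1125, 1088, 982 and 958 in Osmr-/- mice, against 412 to 747 in WT mice with a median of 593. Every Osmr-/- library lay above the highest WT library, and the Osmr-/- libraries also lay closer together. The mean was 1025 ± 75.8 in Osmr-/- cells (SD, n = 5) and 578 ± 145 in WT cells (SD, n = 6). On the log2 scale Osmr-/- cells were 1.82-fold higher, with a log2 difference of 0.86, its standard error 0.22 and the limma adjusted p 0.105 (unadjusted p 0.00159).

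The Smad4 call depended on the model. DESeq2 on the recovered reads gave an adjusted p of 0.0228 and the authors' deposited table has a log2 value of 0.79 with an adjusted p of 0.00749, while edgeR gave an adjusted p of 0.131. With the number sets as a covariate, where 0.996% of genes were called higher, limma gave an adjusted p of 0.0450, and with the length and GC trend removed, where 0.119% were higher and 0.0637% lower, a log2 difference of 1.12 and an adjusted p of 0.0452. The log2 difference was 1.11 within labels 1 to 3 and 0.58 within labels 4 to 6, and the interaction of genotype and number set had an unadjusted p of 0.2. No exon base of Smad4, which lies on chromosome 18 from 73639009 to 73703780 (GRCm38), is shared with a gene on the other strand.

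The receptor-regulated SMADs lay on both sides of 0, with 2 above and 2 below. Smad1, of the BMP branch, had 427, 628, 641, 468 and 819.7 in Osmr-/- mice, against 259 to 443 in WT mice with a median of 403. Of the Osmr-/- libraries 4 lay above the highest WT library. The level was 1.53-fold higher on the log2 scale, with a log2 difference of 0.62, its standard error 0.25 and the limma adjusted p 0.227 (unadjusted p 0.0271). Smad5, of the same branch, had 524, 432, 755, 534 and 1067 in Osmr-/- mice, against 339 to 1038 in WT mice with a median of 735, and the groups overlapped (log2 difference -0.10, limma adjusted p 0.907). Both differences of Smad1 within number sets were above 0, at 0.68 and 0.59, while those of Smad5 were 0.24 and -0.35.

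Of the TGF-beta branch, Smad3 had 116, 279, 237, 254 and 197 in Osmr-/- mice, against 178 to 547 in WT mice with a median of 372. WT 6, at 178, lay among the Osmr-/- libraries, and the other 5 WT libraries lay above all of them. The mean was 217 ± 63.9 in Osmr-/- cells (SD, n = 5) and 378 ± 136 in WT cells (SD, n = 6). On the log2 scale Osmr-/- cells were 1.71-fold lower, with a log2 difference of -0.77, its standard error 0.35 and the limma adjusted p 0.26 (unadjusted p 0.0419). Within the number sets the log2 difference was -0.80 and -0.71. Smad2 averaged 485 ± 211 in Osmr-/- cells and 383 ± 262 in WT cells (SD, n = 5 and 6), a log2 difference of 0.47 with a limma adjusted p of 0.615.

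**Figure D3:**
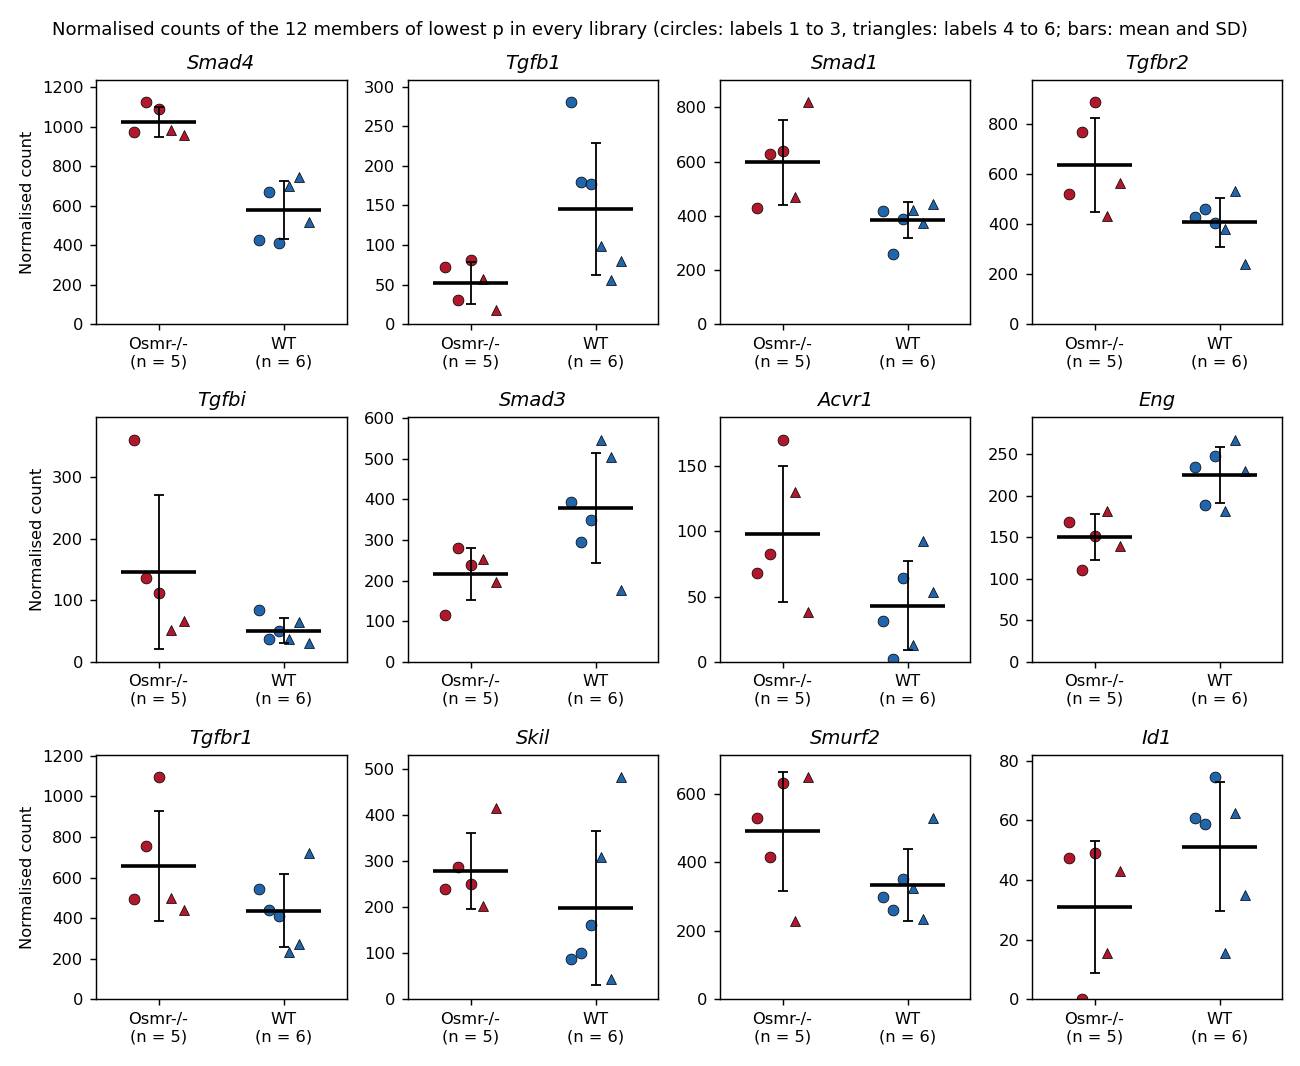
Normalised counts (linear axis from 0) of the 12 members of lowest limma p in the 5 Osmr-/- libraries (red, left) and the 6 WT libraries (blue, right), with circles for labels 1 to 3, triangles for labels 4 to 6, and bars for the mean and SD. Only for Smad4, with Osmr-/- libraries from 958 to 1125 and WT libraries from 412 to 747, do the groups not overlap.

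The inhibitory SMADs were low and overlapped between groups. Smad6, which blocks the BMP branch, had 52.1, 50.8, 139, 102 and 49.8 in Osmr-/- mice, against 16.3 to 133 in WT mice with a median of 79.1 (log2 difference 0.15, standard error 0.57, limma adjusted p 0.921). Smad7, which blocks both branches, averaged 88.4 ± 28.1 in Osmr-/- cells and 81.2 ± 29.4 in WT cells (SD, n = 5 and 6; limma adjusted p 0.9). Only 24 of the 33 members had a window, and the others were not searched for motifs. The Smad6 window is shown because it was the single one of the 32 member windows with GTCTAGAC. This palindromic motif of SMAD3 and SMAD4 was found in 0.213% of all windows. The Smad6 window is chr9:64022010-64022309 on the minus strand, with the motif in capitals, which begins 4 bases before the gene start and runs across it:
Smad6: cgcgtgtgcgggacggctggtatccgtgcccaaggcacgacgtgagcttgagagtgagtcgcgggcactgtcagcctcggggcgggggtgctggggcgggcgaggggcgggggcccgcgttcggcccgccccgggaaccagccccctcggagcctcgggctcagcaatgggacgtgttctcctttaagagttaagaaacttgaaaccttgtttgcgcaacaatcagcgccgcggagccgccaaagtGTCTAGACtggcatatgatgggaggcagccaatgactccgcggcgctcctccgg

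The co-repressors recruit histone deacetylases to SMAD-bound genes. Skil, which encodes SnoN, had 239, 287, 251, 203 and 416 in Osmr-/- mice, against 44.4 to 483 in WT mice with a median of 132. All Osmr-/- libraries lay within the wide WT range, and the log2 difference was 0.88 with a standard error of 0.52 (limma adjusted p 0.393). Tgif1, the co-repressor with the highest level per kb, had 708, 648, 552, 546 and 482 in Osmr-/- mice, against 419 to 724 in WT mice with a median of 634, and the groups overlapped (log2 difference -0.06, 95% interval -0.54 to 0.41, limma adjusted p 0.915). Ski averaged 409.9 ± 88.6 in Osmr-/- cells and 346 ± 68.7 in WT cells (SD, n = 5 and 6; limma adjusted p 0.646).

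A window of Tgif1 is shown because oncostatin M signals through STAT factors. It was the single member window with their spaced motif TTCNNNGAA, or 3.1% of 32, beside 8.30% of all windows. The window lies at a start inside the gene, which spans 70844205 to 70853546 in GENCODE M21. It is chr17:70846728-70847027 on the minus strand, with the motif in capitals 183 bases before that gene start:
Tgif1: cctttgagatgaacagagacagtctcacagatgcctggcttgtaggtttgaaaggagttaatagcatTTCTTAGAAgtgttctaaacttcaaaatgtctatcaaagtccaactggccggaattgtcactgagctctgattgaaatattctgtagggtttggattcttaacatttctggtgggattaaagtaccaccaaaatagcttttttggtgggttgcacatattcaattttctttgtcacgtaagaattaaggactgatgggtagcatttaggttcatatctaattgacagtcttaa

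Both SMURF ligases, which mark SMADs and receptors for degradation, had log2 differences above 0. Smurf2 had 530.1, 416, 630.2, 229 and 648 in Osmr-/- mice, against 233 to 528 in WT mice with a median of 311. Of the Osmr-/- libraries 3 lay above every WT library and Osmr-/- 5 below all of them, for a log2 difference of 0.52 with a standard error of 0.32 (limma adjusted p 0.41). Smurf1 averaged 78.0 ± 67.7 in Osmr-/- cells and 45.8 ± 37.5 in WT cells (SD, n = 5 and 6; limma adjusted p 0.726).

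The target genes lay on both sides of 0. Tgfbi, a secreted matrix protein induced by TGF-beta, had 361, 136, 112, 52.5 and 66.4 in Osmr-/- mice, against 31.0 to 83.7 in WT mice with a median of 44.1. Osmr-/- 1, 2 and 3 lay above every WT library, and Osmr-/- 5 and 6 lay within the WT range. The mean was 146 ± 125 in Osmr-/- cells (SD, n = 5) and 50.7 ± 20.2 in WT cells (SD, n = 6), 2.37-fold higher on the log2 scale, with a log2 difference of 1.24, its standard error 0.54 and the limma adjusted p 0.253 (unadjusted p 0.0366). It was 1.69 within labels 1 to 3 and 0.49 within labels 4 to 6 (interaction p 0.235), and the authors' deposited table gives 1.17 with an adjusted p of 0.0629.

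The ID genes, which encode inhibitors of basic helix-loop-helix factors, are direct BMP targets. Id1 had 47.6, 0, 49.0, 15.4 and 42.9 in Osmr-/- mice, against 15.5 to 74.5 in WT mice with a median of 59.8. The groups overlapped, and the log2 difference of -1.40 had a standard error of 0.95 (limma adjusted p 0.455). Without Osmr-/- 2, the library at 0, it was -0.37. Id2 had 221, 407, 300.3, 108 and 395 in Osmr-/- mice, against 174 to 497 in WT mice with a median of 413. Only Osmr-/- 5 lay below the WT range (log2 difference -0.43, limma adjusted p 0.601). Id3 had 80 reads in Osmr-/- libraries, all in Osmr-/- 6, and 113 in WT libraries, all in WT 2, 3 and 5.

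The windows of Tgfbi and Id2 are shown as the target genes with GGCGCC near their start, in capitals, 77 bases before the Tgfbi start on chr13:56609336-56609635 (plus strand) and 231 bases before the Id2 start on chr12:25096043-25096342 (minus strand). Neither gene passed the adjusted threshold, and a match is again a description of the letters only:
Tgfbi: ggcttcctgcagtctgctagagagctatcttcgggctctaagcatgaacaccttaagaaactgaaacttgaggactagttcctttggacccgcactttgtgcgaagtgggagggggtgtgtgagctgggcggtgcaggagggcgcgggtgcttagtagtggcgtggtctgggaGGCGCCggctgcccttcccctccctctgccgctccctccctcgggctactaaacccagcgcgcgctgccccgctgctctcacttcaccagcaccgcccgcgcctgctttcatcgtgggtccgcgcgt
Id2: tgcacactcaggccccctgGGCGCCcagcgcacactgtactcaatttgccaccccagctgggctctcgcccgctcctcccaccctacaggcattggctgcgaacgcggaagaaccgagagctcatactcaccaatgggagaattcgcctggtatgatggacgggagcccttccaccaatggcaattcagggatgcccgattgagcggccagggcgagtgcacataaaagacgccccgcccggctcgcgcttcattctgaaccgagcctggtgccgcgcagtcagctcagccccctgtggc

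Across the number sets, 18 of the 26 members tested in both kept the sign of their log2 difference, or 69.2%, beside 60.3% of the genes tested in both. Acvr2b did not pass the filter within labels 4 to 6. Smad4, Smad1, Tgfbr2, Tgfbi, Tgfb1 and Smad3, the 6 members at an unadjusted p under 0.05, had the same sign in both sets, and the 2 sets together are the libraries that gave that p. Only Ltbp3 and Tgfbr3 had an unadjusted interaction p under 0.05 in limma, where 9.85% of all tested genes did, and no gene passed the adjusted threshold. Between the sets themselves, 0 members were called, where 2.61% of genes were higher and 4.69% lower in labels 4 to 6. The member of lowest p between the sets was Smad5, with a log2 difference of 0.77 and a limma adjusted p of 0.0863.

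**Figure D4:**
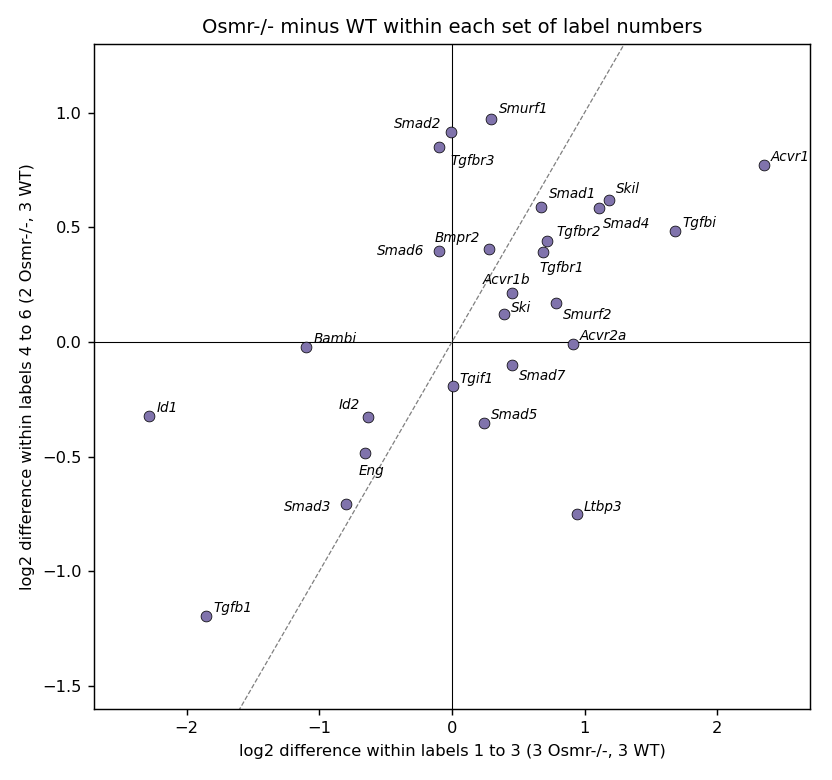
Log2 difference (Osmr-/- minus WT) within labels 1 to 3 (horizontal axis) and within labels 4 to 6 (vertical axis, drawn at a larger scale) for the 26 members tested in both; solid lines mark 0 and the dashed line equal values. Tgfb1 lies lowest, at -1.85 and -1.19, Acvr1 farthest right, at 2.35 and 0.77, and Ltbp3 apart at 0.94 and -0.75.

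Other genes of the pathway were taken from a list of 135 ligands, antagonists, receptors, adaptors, partners and targets, of which 72 passed the filter. limma and edgeR called 0 of them. At an unadjusted p under 0.05 there were 19, or 26.4%, beside 18.0% of all tested genes, with 11 higher and 8 lower, and 8 of the 19 were among the 16 transcription partners. The log2 differences lay above 0 for 36 and below 0 for 36. In the authors' deposited table E2f5, Rnf111, Rbl1 and Runx2 were called higher. They were 5.56% of the list genes with an adjusted p there, beside 1.67% of all its genes. No gene of the list was called lower, where 2.79% of all its genes were. Osmr-/- libraries lay above all WT libraries for Rbl1, Runx2 and Ep300, 3 of the 72, beside the 1.09% of all tested genes given above.

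E2f5 and Rbl1 encode an E2F factor and the p107 pocket protein, which join SMAD3 in repressing Myc. E2f5 had 1864, 2533, 2387, 1027 and 981 in Osmr-/- mice, against 299 to 1519 in WT mice, and only WT 3 overlapped (log2 difference 1.59, standard error 0.41, limma adjusted p 0.104). Rbl1 had 1417, 1110.3, 1485, 1002 and 1002 in Osmr-/- mice, against 622 to 845 in WT mice, without overlap (log2 difference 0.70, standard error 0.20, limma adjusted p 0.127). Rnf111, which encodes the ligase Arkadia that degrades SKI and SKIL, had 1240.4, 1281, 2079, 1047 and 1396 in Osmr-/- mice, against 446 to 1049 in WT mice, and the groups touched at Osmr-/- 5 and WT 6 (log2 difference 0.93, limma adjusted p 0.123). Runx2, a SMAD partner also held by the stromal marker list, had 1520, 1314, 1270, 1708 and 1178 in Osmr-/- mice, against 586 to 1076 in WT mice, without overlap (log2 difference 0.76, limma adjusted p 0.129). Ep300, a co-activator of SMADs, averaged 1508 ± 334 in Osmr-/- cells and 936 ± 206 in WT cells (limma adjusted p 0.149), and Klf10, a TGF-beta-induced repressor, 1189 ± 338 in Osmr-/- cells and 679 ± 199 in WT cells (limma adjusted p 0.152; SD, n = 5 and 6).

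Among genes of the list with a log2 difference below 0, the 2 of lowest p were ligands. Gdf3, a ligand of the BMP family, had 52.1, 297, 73.5, 2.06 and 185 in Osmr-/- mice, against 205 to 672 in WT mice, and only Osmr-/- 2 overlapped (log2 difference -2.77, standard error 0.88, limma adjusted p 0.144). Lefty1, which encodes an antagonist of Nodal, averaged 54.8 ± 44.0 in Osmr-/- cells and 132 ± 44.8 in WT cells (SD, n = 5 and 6), a log2 difference of -1.45 with a limma adjusted p of 0.182.

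Markers of other cell types differed between the genotypes in part, and their part in the members' differences was not tested. The summed count of 17 erythroid markers was 12907 to 19468 in Osmr-/- libraries and 19386 to 62341 in WT libraries, where WT 1 to 3 held 55134 to 62341 and WT 4 to 6 held 19386 to 21954, and 14 of the 15 tested genes lay below 0. Car2 held 69.6% of that sum, and without it the groups did not overlap, at 2199.5 to 4545 in Osmr-/- libraries and 4801 to 31458 in WT libraries. Hbb-bt, a globin gene of the list, lay the other way without overlap, at 707 to 1567 in Osmr-/- and 150 to 697 in WT libraries. Car1, at 225 to 2601 in Osmr-/- and 1711 to 22648 in WT libraries, overlapped. The sum of 12 neutrophil markers was 29957 in Osmr-/- 3, against 4692 to 6057 in the other Osmr-/- libraries and 3412 to 5516 in WT libraries. Osmr-/- 3 also had the highest Tgfbr1, Tgfbr2 and Acvr1 counts of its group, and those of Smurf1, Smad6, Id1 and Tgfb1. Without this library and WT 1 together the log2 differences were 0.48 for Tgfbr1, 0.52 for Tgfbr2 and 1.40 for Acvr1. Those of Smurf1, Smad6 and Id1 were then 0.25, 0.00017 and -1.70. On the same libraries the log2 differences were 0.76 for Smad4, 0.61 for Smad1, 1.41 for Tgfbi, -1.42 for Tgfb1 and -0.79 for Smad3. The sum of 12 stromal markers was 1326 to 1845 in Osmr-/- libraries and 672 to 1184 in WT libraries. Runx2 alone, described above, held 90.9% of it, and the other 11 genes overlapped at 81.2 to 161 in Osmr-/- libraries and 53.8 to 157 in WT libraries, with Pdgfra, Lum and Adipoq at 0 reads in every library. In these bulk libraries fewer cells of a type and less RNA per cell cannot be told apart.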

How the data were processed

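RNA of 11 sorted libraries was analysed here. The remaining Osmr-/- library of the series has no column in the authors' deposited values. The submitters' processing notes name Trimmomatic 0.36.6, FastQC 0.72, HISAT2 2.1.0, HTSeq 0.9.1 and the mm10 build, and the authors' deposited signal is the read count divided by the DESeq2 size factor (wrapper 2.11.40.6). The authors also deposited log2 values (regularised log and variance stabilised), and an unnamed-column table of log2 fold changes, Wald scores and p-values, printed here as Osmr-/- over WT, its sign turned. Dividing each library by its step recovered whole read counts for edgeR 4.0.16 and DESeq2 1.42.0; the largest distance from a whole number was 1.4e-09.

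limma 3.58.1 (lmFit, eBayes with trend, R 4.3.3) was fitted with genotype to log2(normalised count + 1). This scale can understate changes of low genes, but a library at or near 0 can also widen them. The log2 difference of Acvr2b was -1.29 in limma and -0.40 in DESeq2, and that of Id1 -1.40 and -0.72. That of Smurf1 was 0.54 in limma and 0.77 in DESeq2. Genes needed at least 10 in at least 5 libraries, and p-values, all two-sided, were adjusted over all genes by the Benjamini-Hochberg method. Floors of 3 reads cover counting error only, since without molecular identifiers PCR copies are not separate molecules. Members and lists were chosen with earlier results of these data known; all members are named, with values in every Osmr-/- library and the WT range and median (every WT value for Tgfb1 and Bmpr1a) for the 12 of lowest p, those called in the authors' table and the highest per kb in each role, and Bmpr1a and the motif windows were singled out after their values were seen. Of the other pathway genes, those called in the authors' table were named, filled to 8 by lowest p. The scripts were tested on simulated data.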

Additional observations from a re-analysis of the deposited data

Results flagged for a closer look

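In 5 member groups the highest or lowest library stood away from the rest by more than Dixon's 95% limit, and chance flags about 1 in 20 of the 56 groups checked. Among WT libraries the lowest value stood apart for 4 members. Acvr1b, the activin type I receptor, was at 62.5 in WT 3, Bambi, the decoy receptor, at 20.7 in WT 6, Smad1, of the BMP branch, at 259 in WT 2, and Tgif1, the co-repressor, at 419 in WT 5. In Osmr-/- libraries Id1, the BMP target, was at 0 in Osmr-/- 2. The library total of WT 1, 22.1 M reads, also stood above those of the other WT libraries.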

How the results depend on the processing

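Of the 27 members tested, 18 kept the direction of their difference under every alternative run (29 for each, but 27 for Acvr2b and 28 for Id1, which a filter at 50 or, for Acvr2b, labels 4 to 6 alone left untested), Smad4, Tgfb1, Smad1, Tgfbr2, Tgfbi and Smad3 among them. The other 9 changed sign at least once, and the cause was not tested. Labels 4 to 6 alone gave a log2 difference of -0.75 for Ltbp3, -0.00895 for Acvr2a and -0.10 for Smad7. Labels 1 to 3 alone gave -0.10 for Tgfbr3, -0.00456 for Smad2, 0.24 for Smad5, -0.10 for Smad6 and 0.00546 for Tgif1. With the length and GC trend removed, which moved the median of all genes to 0.06, Bmpr2 was at -0.0141 and Tgif1 at 0.0668. Without WT 1 and Osmr-/- 3 together Smad7 was at -0.0304. Leaving out 1 library gave -0.000701 to 0.48 for Ltbp3, -0.30 to 0.0338 for Smad5, -0.23 to 0.36 for Smad6 and -0.17 to 0.00403 for Tgif1; the sign turned without WT 3 for Ltbp3, without Osmr-/- 2, WT 4 or WT 5 for Smad5, without Osmr-/- 3 or WT 4 for Smad6 and without Osmr-/- 6 for Tgif1.

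Members called higher numbered 1, which was Smad4, under DESeq2, under DESeq2 with a beta prior, with a covariate for the number sets and with the length and GC trend removed, and 0 under the other alternatives. The adjusted p of Smad4 was 0.00749 to 0.474 over all alternatives. Pathway genes called higher numbered 4 under DESeq2 with or without a beta prior and 1 with the covariate, against 0 in the main model. The share was 8.0% under DESeq2 without the prior, beside 2.09% of all genes with an adjusted p. With the covariate it was 1.39%, beside 0.996%. Without Osmr-/- 5 the interaction term called 1 gene, against 0 without any other library.

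All genes called higher and lower, 1 and 2 in the main model, numbered 230 and 385 under DESeq2 with a beta prior, 165 and 335 under DESeq2, 133 and 204 with the covariate, 15 and 8 with the length and GC trend removed, 13 and 42 with a pseudocount of 10, 14 and 42 with quantile scaling, 18 and 51 on regularised log values, and 17 and 49 on variance stabilised values. Both were 0 with a filter at 50, with no filter and within either number set. They were 0 and 4 without the trend, 0 and 1 without WT 1 and Osmr-/- 3 together, and the lower count was 1 under edgeR and with a pseudocount of 0.5. Leaving out 1 library gave 0 to 34 higher and 0 to 91 lower, with 34 and 91 without WT 6, 0 and 4 without Osmr-/- 1, 0 and 1 without Osmr-/- 3, 0 and 0 without Osmr-/- 2 or WT 2, 3, 4 or 5, and 0 lower without WT 1, 9 without Osmr-/- 5 and 4 without Osmr-/- 6.

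Same-numbered libraries of the 2 genotypes had deviations that correlated at 0.0203 to 0.0986, and the 25 pairs of unlike number at -0.19 to 0.14. These ranges overlap and cannot decide whether same-numbered libraries were paired, and the labels do not link them. With the replicate block all genes called numbered 0 and 0, Smad5 was at 0.0238 and Smad6 at -0.23. With 5 and 6 mice and 9.50 to 22.1 M reads per library, the log2 differences of the low members Acvr1, Acvr2b, Smurf1 and Id1 carried standard errors of 0.71 to 0.97, and those of Smad6 and Smad7 0.57 and 0.43. The model without WT 1 and Osmr-/- 3, the length and GC fit, the bounds without 1 library and the marker sums without their leading gene were chosen after seeing the data. The number sets also came from an earlier look at these data. This holds for the fits within them, the covariate fit and the interaction.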
